A study of Mus musculus with 10 samples.

Results

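Androgenetic haploid embryonic stem cells (AG-haESC) were compared with mouse embryonic fibroblasts (MEF) across all genes that the array could name. The comparison used 7 of the 10 arrays of the study, 5 of AG-haESC and 2 of MEF, and the remaining 3 arrays, of the diploid stem cell line E14, entered the shared estimate of the spread and stand beside a few results. AG-haESC are stem cells from blastocysts whose genome came from sperm alone. Each AG-haESC array was a separate line of C57BL/6J background, at passages 12 to 15. Lines AGH-OG-1, AGH-OG-2, AGH-OG-3 and AGH-OG-4 (here replicates 1, 2, 4 and 5) carried an Oct4-EGFP transgene, and line AGH-EG-1 (replicate 3) carried Actin-EGFP. They were grown on feeder cells with CHIR99021 and PD0325901, inhibitors of GSK3 and of MEK. MEF came from a male B6D2F1 embryo at d13.5, used at passage 2, and were wild type. Their medium is not stated in the sources. E14 is a male wild-type line of 129/Sv background at passage 17. All groups were sorted on DNA content after staining with 15 µg/ml of the dye Hoechst 33342, taking the 1n peak for AG-haESC and the 2n peak for E14 and MEF, and the design text describes the sorted cells as G1/G0. Cell type, ploidy, parental origin of the genome, strain, passage and transgene thus all differed between AG-haESC and MEF and cannot be told apart, and how far culture differed is not known. MEF are labelled male and Y-linked signals were faint in AG-haESC, so sex chromosome content cannot be told apart from these either. The labels do not settle whether both MEF arrays share an embryo, so the spread of that group may be technical, and E14 stands for a single line.

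An embryonic stem cell keeps a small transcription factor circuit running that holds it undifferentiated and lets it divide with a very short G1 phase. It grows as an epithelial colony joined by E-cadherin. A fibroblast is a mesenchymal cell that lives apart from its neighbours, spreads on stress fibres, and secretes and remodels the collagen-rich matrix around it. Its identity also holds a record of its place in the body, kept by Hox genes.

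Signal is given on the log2 scale, in which a difference of 1 is 2-fold, with AG-haESC values in the order of replicates 1 to 5 and MEF values in the order of replicates 1 and 2. Differences are AG-haESC minus MEF with the standard error of the limma fit, and p-values are limma's, adjusted over all genes by Benjamini-Hochberg. Of 34945 probe sets with a single gene symbol, 23911 passed the filter on low signal, and the brightest for each gene gave 13251 genes. The filter asked for a signal above the array median in at least 2 arrays. Genes below it in both MEF arrays thus passed only through stem cell arrays, which favours calls of higher. Genes below it in all stem cell arrays passed only through both MEF arrays, which favours calls of lower. Shares in lists with many such genes are partly built in. A gene was called higher or lower when its adjusted p lay below 0.05 and the difference was at least 2-fold. By that rule AG-haESC had 2609 genes (19.7%) higher and 2987 (22.5%) lower than MEF, 42.2% in all, and these shares are the background for every count below. The p threshold alone was passed by 59.8% of genes, and 39.9% of all kept probe sets with 1 symbol were called. Every AG-haESC array lay above both MEF arrays for 34.6% of all genes and below both for 35.7%. With each array centred on its median over the 13251 tested genes, 3492 genes were higher and 2475 lower. Of the called genes 58.5% were then higher, against 46.6% as reported here, and the median difference of all genes moved from 0.0045 to 0.28. The difference reached 16-fold or more in 383 genes called higher and 543 called lower. Array medians, taken over all probe sets but the controls, lay between 5.81 and 6.07, and signals below them were treated as background. Where all arrays of the dimmer group lay there, the fold is a lower bound ("at least"), computed with that group set to its array medians. Medians of lists are of differences as measured and are not such bounds. Pearson's r across genes averaged 0.960 between AG-haESC arrays, 0.969 between the MEF arrays and 0.661 between the groups, as a description, since genes are not replicates.

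**Figure D1:**
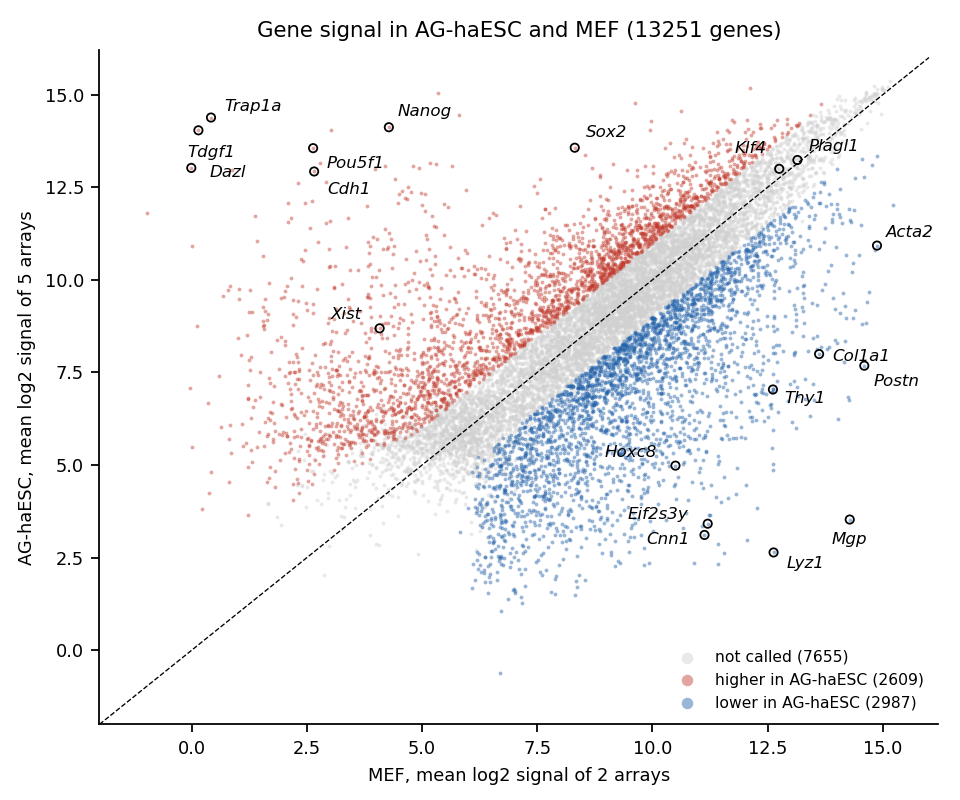
Mean log2 signal of each of 13251 genes in MEF (horizontal axis, 2 arrays) and in AG-haESC (vertical axis, 5 arrays). Red points are the 2609 genes called higher in AG-haESC, blue points the 2987 called lower, grey points the 7655 not called, and the dashed line marks equal signal. Pluripotency and germline genes sit at the upper left and matrix genes at the lower right, while Klf4 and Plagl1 lie on the line.

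The labels were checked first against defining markers. Of the ES cell markers, Pou5f1, the POU factor OCT4 at the centre of the pluripotency circuit, read 13.63, 13.60, 13.56, 13.63 and 13.35 in AG-haESC and 2.63 and 2.65 in MEF. Nanog, a homeobox factor of the same circuit, read 14.08, 14.06, 14.22, 14.17 and 14.07 against 4.15 and 4.41. Both were bright in every AG-haESC line and below the array median in both MEF arrays, an increase of at least 190.1-fold for Pou5f1 (adjusted p = 6.7e-13) and 281-fold for Nanog (adjusted p = 6.7e-13). Of the fibroblast markers, Thy1, a surface glycoprotein, read 7.13, 7.73, 7.17, 6.71 and 6.45 against 12.77 and 12.46, and Postn, the matrix protein periostin, read 6.38, 8.80, 8.10, 7.33 and 7.80 against 14.74 and 14.45. Neither overlapped, and both groups matched their labels by these markers. Fibroblast transcripts were not all at the floor in AG-haESC, where the collagen gene Col1a2 stood at 9.95, 11.86, 11.14, 10.16 and 10.93, and this is taken up with the matrix genes.

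The pluripotency circuit was higher almost throughout. Of 29 measured transcription factors and cofactors of the circuit, 26 (89.7%) were called higher in AG-haESC and 0 lower, against 19.7% and 22.5% of all genes. Their median difference was 3.95 against 0.0045 over all genes. In 13 of the 29 both MEF arrays lay below their medians. Sox2, the partner of OCT4 on DNA, read 13.58, 13.79, 13.49, 13.27 and 13.70 against 7.99 and 8.64. Every line exceeded both MEF arrays, by 5.25 ± 0.19 (38.1-fold, adjusted p = 2.7e-09), and unlike Pou5f1 the gene was above the array median in MEF. Esrrb, an orphan nuclear receptor that sustains self-renewal, differed by 6.13 ± 0.19 (at least 43.4-fold, adjusted p = 1.33e-09). Zfp42, the stem cell marker REX1, read 11.42, 11.70, 12.11, 10.90 and 11.56 against 3.89 and 1.94. Its lines spread over more than 1 log2 unit, all far above MEF, a difference of at least 47.01-fold (adjusted p = 4.61e-08). Sall4, a zinc finger partner of OCT4, was at least 99.7-fold higher (adjusted p = 1.33e-08), and Prdm14, which represses differentiation and germline DNA methylation genes, at least 33.6-fold (adjusted p = 1.28e-08).

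Klf4, a Krüppel-like factor of the reprogramming set, was the exception with a bright signal on both sides. It read 13.22, 13.46, 13.01, 12.12 and 13.17 in AG-haESC and 12.75 and 12.75 in MEF, so that the MEF arrays fell inside the range of the lines, and the difference was 0.25 ± 0.27 (adjusted p = 0.456). The other uncalled circuit members were Foxd3, at 0.49 ± 0.61 (adjusted p = 0.51), and Zfp462, whose 0.71 ± 0.18 passed the p threshold (adjusted p = 0.00506) but not 2-fold. The Myc family split by member. Mycn, the family member of early embryonic cells, read 12.17, 11.96, 12.02, 11.16 and 11.73 against 7.57 and 7.93, 16.6-fold higher (adjusted p = 3.22e-05). Myc read 5.12, 7.24, 7.07, 3.93 and 5.69 against 11.08 and 10.94, a difference of -5.20 ± 1.07 as measured (adjusted p = 0.00138) and of -4.58 with signals raised to the array median, with a wide spread among the lines that did not reach the MEF values.

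Genes that mark stem cells without belonging to the circuit moved the same way. Of 39 listed, 33 were measured, of which 29 (87.9%) were higher and 0 lower, with a median difference of 6.41. For 21 of the 33 both MEF arrays lay below their medians. Tdgf1, the NODAL co-receptor CRIPTO, read 14.06, 14.15, 13.94, 14.002 and 14.04 against 0.04 and 0.26, the second largest measured difference of all genes tested and at least 266-fold (adjusted p = 6.63e-14). Dppa5a, an RNA-binding stem cell protein, read 14.93, 15.13, 14.92, 15.34 and 14.87 against 5.83 and 4.85 and had at least 531-fold more signal (adjusted p = 5.17e-11). Both were nearly level across the lines. Lin28a, which blocks maturation of let-7 microRNAs, varied more, at 9.09, 10.58, 10.39, 9.82 and 8.71 against 1.01 and 0.57, and was at least 13.3-fold higher (adjusted p = 5.71e-08). Its 1 other kept probe set was not called. Fgf4, the growth factor by which stem cells prime themselves for differentiation, was at least 68.1-fold higher (adjusted p = 2.7e-09), and Fbxo15, an F-box protein marker of the undifferentiated state, at least 265-fold (adjusted p = 1.12e-07). The 4 members not called were Fut4, at -0.82 ± 0.43, Enah, at 0.40 ± 0.19, Manba, and Tert, the telomerase catalytic subunit, whose difference of 0.94 ± 0.31 stayed just under 2-fold (adjusted p = 0.0194).

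**Figure D2:**
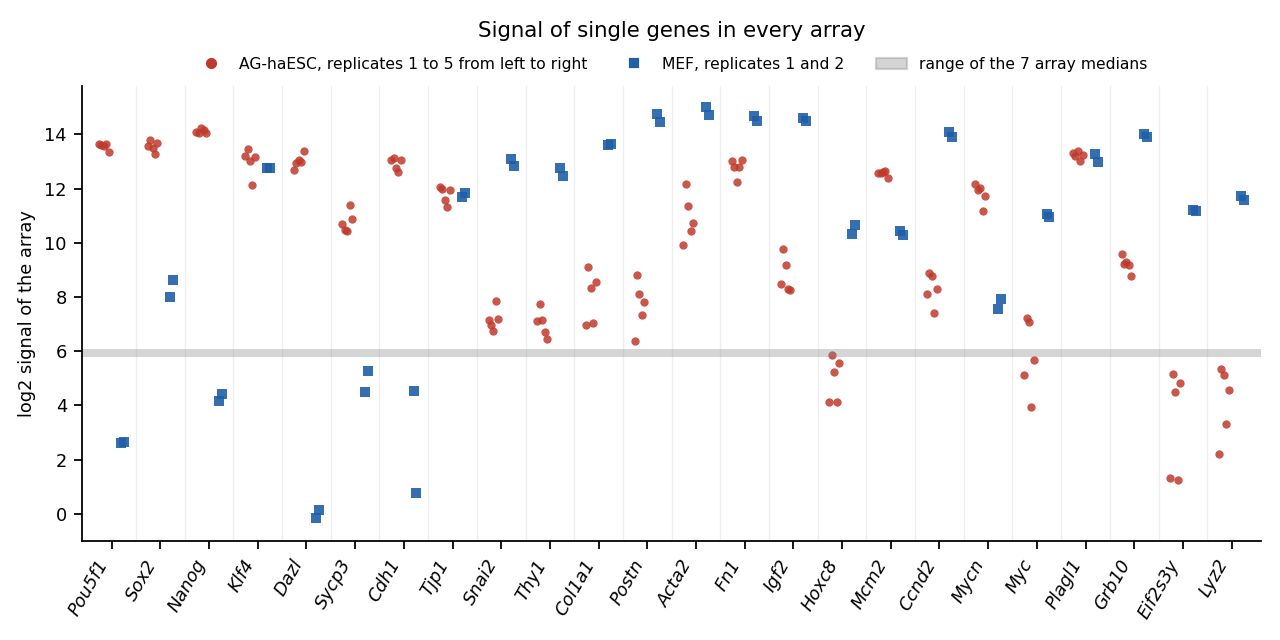
Log2 signal of 24 genes in every array of the comparison, with red circles for the 5 AG-haESC lines, blue squares for the 2 MEF arrays and a grey band for the range of the 7 array medians. Pou5f1, Sox2, Nanog, Dazl, Sycp3, Cdh1, Mcm2 and Mycn are higher in every AG-haESC line, Klf4, Tjp1 and Plagl1 overlap, and the remaining 13 genes are lower in every line.

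The receptors and transducers that feed this circuit did not follow it. LIF holds mouse stem cells undifferentiated through a receptor pair of LIFR and gp130 and the transducer STAT3. Of 23 measured genes for LIF, FGF, NODAL and BMP reception, 3 (13.04%) were higher and 9 (39.1%) lower, with a median of -0.51. Il6st, which encodes gp130, read 9.57, 9.53, 9.50, 9.44 and 9.21 against 12.28 and 12.14 and was 6.78-fold lower in AG-haESC (adjusted p = 5.05e-08). Stat3 read 9.33, 9.78, 9.72, 10.24 and 10.04 against 11.52 and 11.47, 3.19-fold lower (adjusted p = 6.68e-05), and Lifr differed by -0.01 ± 0.32 (adjusted p = 0.988). Socs3, a feedback inhibitor that STAT3 switches on, went the other way, with 11.73, 12.06, 11.28, 11.91 and 12.29 against 10.41 and 10.79, 2.38-fold higher (adjusted p = 0.00125), though just under 2-fold as a mean of its probe sets. The other members called higher were Kit, the stem cell factor receptor, at least 32.5-fold (adjusted p = 3.45e-06), and Acvr2b, a receptor for NODAL and activin, which was higher by 3.91 ± 0.41 as measured (adjusted p = 9.22e-06) and by 2.98 with signals raised to the array median. Fgfr1 was 2.63-fold lower (adjusted p = 8.68e-05) and Pdgfra, a receptor of mesenchymal and primitive endoderm cells, 36.3-fold lower (adjusted p = 2.43e-07).

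Germline genes formed 1 of the 2 lists with the largest positive medians. Many of them are silenced in somatic tissues by DNA methylation at their promoters, and some are bound at E-boxes (CACGTG) by a repressor complex that contains MGA, MAX and PRC1. Of 46 listed, 37 were measured, of which 33 (89.2%) were higher and 0 lower, with a median of 5.74 as measured. For 32 of the 37 both MEF arrays lay below their medians. These 32 passed the filter only through stem cell arrays, so the share called higher is partly built in. The median rests on MEF signals treated as background and is not a lower bound. Dazl, an RNA-binding protein of early germ cells, read 12.70, 12.95, 13.07, 12.98 and 13.41 against -0.14 and 0.13. It was at least 131-fold higher (adjusted p = 3.13e-07), with every line above 12. Sycp3, a component of the meiotic chromosome axis, read 10.69, 10.46, 10.42, 11.41 and 10.89 against 4.48 and 5.27, at least 27.7-fold higher (adjusted p = 2.33e-08). The X-linked Rhox6, a homeobox gene of germ cells and placenta, was at least 53.7-fold higher (adjusted p = 2.69e-09), and Mageb16, also X-linked, at least 127-fold (adjusted p = 2.95e-08). The lines were not alike in this list. Replicate 4 was the brightest of the 5 for 24 of 37 genes, against 24.1% of all genes tested.

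The promoters of 3 of these genes are shown because they hold the E-box letters and their genes were higher in every line. The windows run from 250 bases before to 50 bases after the RefSeq start (GRCm38.p6), 5′ to 3′ on the gene's strand, with each CACGTG in capitals. Mael, a piRNA pathway protein, lies at chr1:166238695-166238994 (minus strand), Hormad1, which organises meiotic chromosome axes, at chr3:95559427-95559726 (plus strand), and Sycp1, the transverse filament of the synaptonemal complex, at chr3:102936051-102936350 (minus strand).
Mael: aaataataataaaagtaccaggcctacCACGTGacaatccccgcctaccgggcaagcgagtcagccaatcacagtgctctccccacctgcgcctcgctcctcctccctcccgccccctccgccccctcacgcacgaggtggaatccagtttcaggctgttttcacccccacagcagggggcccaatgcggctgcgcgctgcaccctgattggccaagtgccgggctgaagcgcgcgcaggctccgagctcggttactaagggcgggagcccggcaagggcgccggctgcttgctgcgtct
Hormad1: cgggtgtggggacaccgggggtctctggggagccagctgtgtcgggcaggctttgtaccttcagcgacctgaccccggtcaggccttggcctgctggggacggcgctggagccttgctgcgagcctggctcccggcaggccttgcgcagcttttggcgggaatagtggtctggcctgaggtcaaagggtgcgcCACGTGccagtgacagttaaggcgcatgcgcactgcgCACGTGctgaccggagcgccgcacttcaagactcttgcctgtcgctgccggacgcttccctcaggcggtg
Sycp1: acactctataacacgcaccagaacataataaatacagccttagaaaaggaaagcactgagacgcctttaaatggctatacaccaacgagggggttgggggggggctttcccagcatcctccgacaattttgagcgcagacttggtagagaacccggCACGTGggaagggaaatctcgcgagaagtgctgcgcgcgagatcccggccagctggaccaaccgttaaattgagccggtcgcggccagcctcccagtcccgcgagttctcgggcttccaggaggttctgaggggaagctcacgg
Mael read 9.43, 9.45, 9.99, 10.73 and 9.61 in AG-haESC and 1.95 and -0.30 in MEF, Hormad1 11.50, 11.49, 11.67, 10.67 and 11.63 against 4.50 and 0.61, and Sycp1 10.27, 10.50, 11.24, 11.42 and 10.61 against 2.56 and 2.38. All 3 were below the median in both MEF arrays and were higher by at least 14.5-fold, 42.5-fold and 28.3-fold (adjusted p = 7.62e-07, 2.34e-06 and 1.28e-08). CACGTG, which reads the same on both strands, occurred in 12 of the 29 germline genes with a window (41.4%) and in 10.2% of the 10652 tested genes that have one. Other lists held it too, 5 of 11 genes (45.5%) in the IGF list and 8 of 26 (30.8%) in the Polycomb list. Of the 12 with the letters 10 were called higher, and of the 17 without them 15. The motif was searched with the results known, and a match is a description of the letters, not of a bound site.

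Cell junctions separated the groups along the epithelial axis. Of 37 measured junction and epithelial genes, 28 (75.7%) were higher in AG-haESC and 0 lower, with a median of 3.73. In 20 of the 37 both MEF arrays lay below their medians, so the share called higher is partly built in. Cdh1, which encodes E-cadherin, read 13.06, 13.14, 12.75, 12.61 and 13.06 against 4.54 and 0.78, at least 123-fold higher (adjusted p = 2.7e-07). Epcam, an adhesion molecule of epithelial and stem cells, read 11.96, 11.93, 12.18, 12.60 and 12.02 against 2.76 and 2.44, at least 71.2-fold higher (adjusted p = 2.62e-11). Both MEF arrays lay below the median for each. Epcam had 1 other kept probe set, which was not called. The desmosomal cadherin Dsg2 was at least 58.1-fold higher (adjusted p = 9.7e-08), the protease inhibitor Spint1 at least 17.1-fold (adjusted p = 4.47e-09) and the epithelial splicing regulator Esrp1 at least 2.87-fold (adjusted p = 4.34e-05), a call lost with the floor (adjusted p = 0.0717). Keratins were less clear. Krt8 read 8.83, 9.07, 9.15, 9.37 and 10.54 against 5.02 and 6.47, higher by 3.65 ± 0.66 as measured (adjusted p = 0.000577) and by 3.13 with signals raised to the array median, whereas its partner Krt18 differed by 1.07 ± 0.44 and missed the threshold (adjusted p = 0.0535), although it passed with quantile normalization (adjusted p = 0.0329). The scaffold Tjp1, which encodes ZO-1, was at 12.07, 11.995, 11.59, 11.32 and 11.93 against 11.70 and 11.85, with both MEF arrays inside the range of the lines and a difference of 0.01 ± 0.21 (adjusted p = 0.977). Esrp2 was likewise not called on the probe set used, at -0.67 ± 0.32 (adjusted p = 0.0875). Its 1 other kept probe set was called higher, so the gene's result depends on the probe set.

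The opposite face of this axis was lower. Of 52 measured mesenchymal transcription factors, 43 (82.7%) were lower in AG-haESC and 0 higher, with a median of -3.70. All AG-haESC arrays lay below their medians for 21 of the 52. Snai2, the repressor SLUG, read 7.14, 6.98, 6.74, 7.86 and 7.20 against 13.11 and 12.85, 55.4-fold lower (adjusted p = 2.33e-08). Twist1, a bHLH factor of mesoderm and neural crest, was 29.1-fold lower (adjusted p = 9.88e-07) and Prrx1, a homeobox factor of limb and fibroblast mesenchyme, differed by -6.68 ± 0.63 as measured (adjusted p = 4.14e-06) and by -6.36 with signals raised to the array median. Prrx1 read 5.39, 7.33, 6.12, 4.90 and 5.97 against 12.79 and 12.46, so that replicate 2 was the only line above 6.2. Fosl2, an AP-1 subunit, and Tshz2, a zinc finger factor of the trunk, were at least 43.9-fold and 9.83-fold lower (adjusted p = 6.72e-07 and 5.47e-05). Fosl2 had 1 other kept probe set, which was not called. Zeb1, which represses E-cadherin, was reduced less, at 10.03, 9.88, 9.46, 8.69 and 9.67 against 11.47 and 11.21, 3.47-fold lower (adjusted p = 0.00131). Its relative Zeb2 was at -0.67 ± 0.35 on the probe set used (adjusted p = 0.121), while its 3 other kept probe sets were each called lower, so the gene's result depends on the probe set. Gli2, a transducer of hedgehog signals, was at 0.07 ± 0.31 (adjusted p = 0.855) and above 9.8 in all 7 arrays.

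Surface proteins of fibroblasts were lower in 32 of 35 measured cases (91.4%), with a median of -3.97. Cdh11, the cadherin of mesenchymal cells, read 6.31, 8.19, 7.23, 5.70 and 6.34 against 14.36 and 14.18, 183-fold lower (adjusted p = 3.91e-06). Cdh2, N-cadherin, was 15.6-fold lower (adjusted p = 4.65e-05). Together with Cdh1 this placed the classical cadherins on opposite sides of the comparison. Thy1 was 47.6-fold lower (adjusted p = 5.91e-07) and Pdgfrb, the PDGF receptor of mural and stromal cells, 63.8-fold (adjusted p = 4.08e-06). Fap, a stromal protease, and Il1r1, the interleukin-1 receptor, were at least 30.00-fold and 12.2-fold lower (adjusted p = 2.16e-07 and 7.14e-06). The 2 members called higher were Podxl, a sialomucin also known from stem cells, at 9.36, 8.44, 8.40, 9.17 and 8.87 against 5.25 and 5.92 (3.26 ± 0.30, or 2.86 with signals raised to the array median, adjusted p = 3.68e-06), and Mme, the endopeptidase CD10, at 11.63, 11.23, 11.53, 11.08 and 11.27 against 9.81 and 9.26 (3.52-fold, adjusted p = 7.39e-05). Eng, the TGF-beta co-receptor endoglin, was the member not called, at -0.30 ± 0.55 (adjusted p = 0.655).

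Collagens were lower in AG-haESC with few exceptions. Of 23 fibrillar and associated collagens, 21 (91.3%) were lower, with a median of -5.02, the lowest of the 33 lists plotted with their medians. Col1a1 read 6.96, 9.10, 8.33, 7.04 and 8.55 against 13.60 and 13.63, 49.2-fold lower (adjusted p = 8.34e-05), and Col3a1 read 8.74, 10.71, 10.05, 8.90 and 9.998 against 14.86 and 14.54, 32.5-fold lower (adjusted p = 1.06e-05). These major fibril collagens stayed above the array median in all AG-haESC lines. Col8a2 and Col11a1 fell below it in all lines, and were at least 42.7-fold and 99.7-fold lower (adjusted p = 5.15e-07 and 1.22e-08). The 2 collagens called higher were faint. Col9a2, of cartilage, was at 6.88, 6.74, 6.13, 6.48 and 7.10 against 4.33 and 4.41, at least 1.61-fold higher (adjusted p = 0.00807), and Col13a1, a transmembrane collagen, at least 1.25-fold (adjusted p = 0.00218). With signals raised to the array median as a floor neither was called, at 0.68 and 0.32, and Col9a2 also missed the threshold without MEF replicate 1 (adjusted p = 0.0506).

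Glycoproteins and proteoglycans of the matrix were lower in 37 of 40 cases (92.5%) and higher in 0, with a median of -4.93. Postn was 121-fold lower (adjusted p = 5.16e-06), and Lum, the collagen-binding proteoglycan lumican, 40.3-fold (adjusted p = 2.06e-06). Mfap4, an elastic fibre protein, read 4.06, 3.30, 1.30, 1.13 and 5.13 against 12.25 and 11.85, at least 68.3-fold lower (adjusted p = 1.5e-05). Fibronectin (Fn1) was reduced far less, with 13.003, 12.79, 12.25, 12.82 and 13.05 against 14.69 and 14.49, 3.51-fold lower (adjusted p = 1.05e-05), and remained bright in every line. The enzymes that make and cross-link collagen followed, with 19 of 21 (90.5%) lower and 0 higher. Lox, lysyl oxidase, was 36.6-fold lower (adjusted p = 1.03e-06), Loxl1 65.96-fold (adjusted p = 2.43e-07), and P4ha3, a prolyl hydroxylase subunit, at least 14.4-fold (adjusted p = 4.06e-06). Of 24 matrix proteases and their inhibitors, 23 (95.8%) were lower and 0 higher. Mmp2, gelatinase A, was 47.01-fold lower (adjusted p = 8.89e-08), Mmp13 at least 13.2-fold (adjusted p = 0.000387), and Timp1, a metalloprotease inhibitor, 2.51-fold (adjusted p = 5.39e-05).

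Basement membrane genes divided. Of 17 measured, 8 (47.1%) were lower and 3 (17.6%) higher, with a median of -1.49. Among laminin alpha chains, Lama3 read 10.01, 9.76, 10.42, 9.83 and 9.59 against 4.98 and 5.22, at least 15.3-fold higher (adjusted p = 3.49e-08), and Lama5 was 2.74-fold higher (adjusted p = 0.00222). Lama4 read 2.47, 5.94, 3.42, 4.31 and 3.81 against 11.62 and 11.37, at least 46.5-fold lower (adjusted p = 8.42e-06), and Lama2 was at least 11.9-fold lower (adjusted p = 0.000111). Lama1, a chain of early embryonic basement membranes, read 5.76, 6.002, 5.48, 5.14 and 5.95 against 6.59 and 6.72. Every line lay below both MEF arrays, by -0.99 ± 0.38 (adjusted p = 0.0391), just under 2-fold, and it was called lower without AG-haESC replicate 2 or 5 (adjusted p = 0.0385 and 0.0395). Nid2, the linker nidogen-2, was 2.31-fold higher (adjusted p = 0.000151), and the collagen IV chain Col4a1 16.9-fold lower (adjusted p = 2.56e-06).

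The AG-haESC lines differed among themselves in fibroblast genes. Over the 237 genes of 7 fibroblast lists (surface, collagens, glycoproteins, mesenchymal factors, collagen enzymes, proteases and stress fibres), replicate 2 was the brightest line for 82, or 34.6%, whereas over all 13251 genes it was the brightest for 2124. The list medians in AG-haESC ranged from 6.23 in replicate 1 to 7.03 in replicate 2 for collagens, where MEF stood at 11.65 and 11.10. Against E14, the AG-haESC lines were called higher in 30 of these 237 genes (background 4.58% of all genes) and lower in 8 (background 3.74%). The lines were grown on feeders, and the part of feeder RNA in these values was not tested. In bulk RNA fewer cells of a type and less RNA per cell cannot be told apart. Without replicate 2, the number of genes called lower in each of the 7 lists stayed within 1.5 times that with it.

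**Figure D3:**
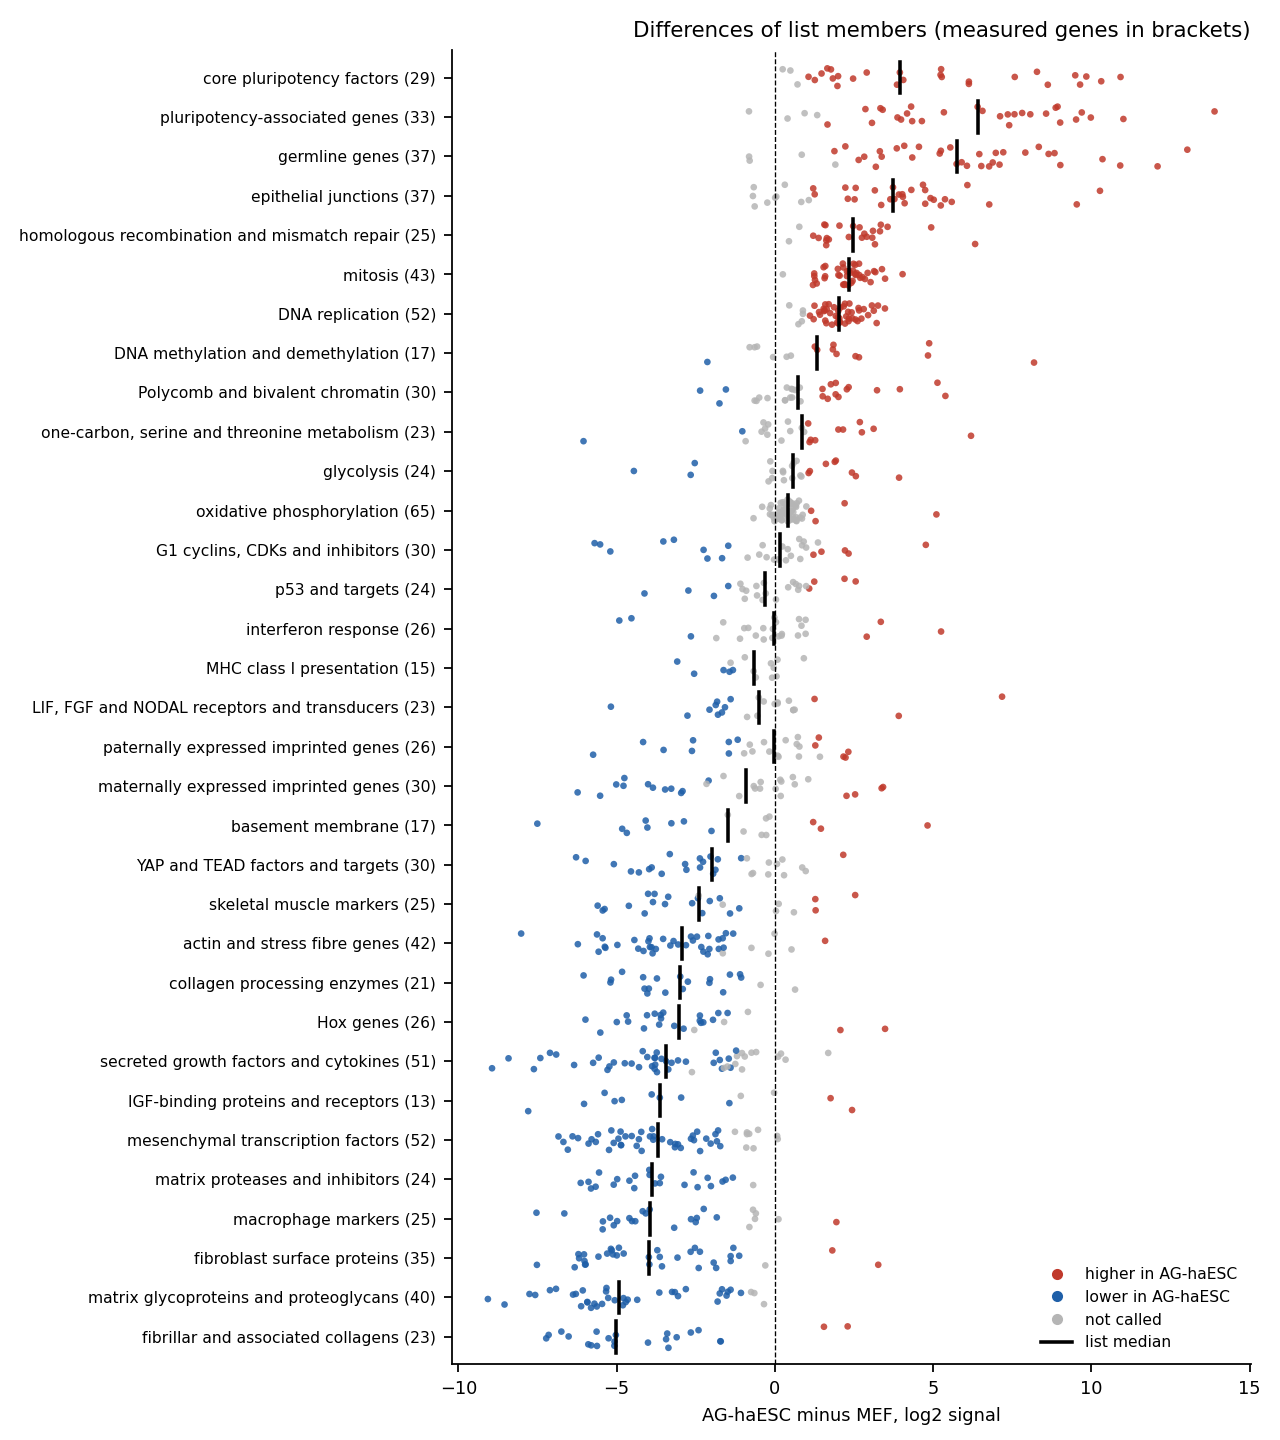
Difference in log2 signal, AG-haESC minus MEF, of every measured gene of 33 lists, with red points called higher in AG-haESC, blue points called lower, grey points not called and a black bar at each list's median. Medians run from 6.41 for pluripotency-associated genes to -5.02 for collagens, and oxidative phosphorylation genes cluster just above 0.

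Contractile and cytoskeletal genes were lower in 36 of 42 measured cases (85.7%), with a median of -2.93. Cnn1, calponin, read 1.30, 4.68, 5.03, 3.59 and 0.97 against 10.90 and 11.35, at least 36.1-fold lower (adjusted p = 7.93e-05). Acta2, smooth muscle actin, read 9.94, 12.17, 11.35, 10.42 and 10.75 against 15.02 and 14.72, 15.4-fold lower (adjusted p = 0.000443), and its lowest line was still above 9.9. Vim, the mesenchymal intermediate filament vimentin, was only 3.13-fold lower (adjusted p = 5.14e-06), at 12.90, 13.30, 13.32, 12.98 and 13.06 against 14.89 and 14.62. Nuclear lamins went apart: Lmna read 7.78, 8.82, 8.39, 7.85 and 8.38 against 12.11 and 12.37, 15.9-fold lower (adjusted p = 2.03e-05), and Lmnb1 was 3.32-fold higher (adjusted p = 0.002). Tln1, the integrin adaptor talin, was the member called higher, at 1.59 ± 0.31 (adjusted p = 0.000867). Of its 2 other kept probe sets 1 was called lower, and the mean of its probe sets gave -0.10, so its direction is uncertain.

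Stress fibres and stiff surroundings drive the coactivators YAP and TAZ into the nucleus, where they act through TEAD factors on genes such as Ccn1 and Ankrd1. Of 30 factors and targets measured, 19 (63.3%) were lower and 1 (3.3%) higher, with a median of -1.99. Yap1 itself differed little, at 11.97, 11.66, 11.50, 11.52 and 11.83 against 12.41 and 12.37, below 2-fold (-0.69 ± 0.15, adjusted p = 0.0018). Wwtr1, which encodes TAZ, was 3.87-fold lower (adjusted p = 5.13e-05). TEAD genes went 3 ways, with Tead1 2.09-fold lower (adjusted p = 7.11e-05, not called as a mean of its probe sets, at -0.24), Tead2 not called at 0.29 ± 0.22 (adjusted p = 0.274), and Tead4, a factor of the trophectoderm, at least 2.52-fold higher (adjusted p = 0.000181). Of the targets, Ccn1 read 11.84, 11.73, 11.26, 11.38 and 12.26 against 14.07 and 14.05, 5.17-fold lower (adjusted p = 6.47e-06), and Ccn2 was 5.15-fold lower (adjusted p = 0.0001), both still bright in AG-haESC. Ankrd1, a cardiac ankyrin repeat protein, and Axl, a receptor kinase, were lower by 23.4-fold and 63.1-fold (adjusted p = 1.2e-05 and 2.65e-07).

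The promoter windows of these last targets are shown as examples of the TEAD letters GGAATG, in capitals, from the same RefSeq table and with the same bounds. Ankrd1 lies at chr19:36119795-36120094 (minus strand) and Axl at chr7:25788684-25788983 (minus strand).
Ankrd1: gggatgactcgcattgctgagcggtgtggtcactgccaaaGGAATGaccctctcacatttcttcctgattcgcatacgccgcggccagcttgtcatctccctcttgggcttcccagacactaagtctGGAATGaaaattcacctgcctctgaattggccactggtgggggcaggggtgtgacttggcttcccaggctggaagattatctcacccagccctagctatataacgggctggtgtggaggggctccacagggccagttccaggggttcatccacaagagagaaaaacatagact
Axl: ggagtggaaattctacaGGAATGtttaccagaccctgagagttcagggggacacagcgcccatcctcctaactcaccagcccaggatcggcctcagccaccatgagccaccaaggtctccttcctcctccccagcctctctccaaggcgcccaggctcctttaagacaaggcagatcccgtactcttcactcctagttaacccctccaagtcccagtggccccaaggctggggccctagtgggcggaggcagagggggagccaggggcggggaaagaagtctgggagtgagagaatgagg
Ankrd1 read 5.88, 6.63, 6.59, 5.87 and 7.46 against 10.70 and 11.37 and Axl 5.68, 6.97, 6.50, 5.40 and 6.37 against 12.07 and 12.26, without overlap. GGAATG, searched on both strands, occurred in 11 of the 20 list members with a window (55.0%) and in 12.1% of the 10652 tested genes with one. The next lists were stress fibre genes, with 11 of 36 (30.6%), and skeletal muscle genes, with 6 of 20 (30.0%). Of the 11 members with the letters 6 were called lower, and of the 9 without them 7.

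Fibroblasts are also a source of growth factors for the cells around them. Of 51 measured secreted factors, 37 (72.5%) were lower in AG-haESC and 0 higher, with a median of -3.44. All AG-haESC arrays lay below their medians for 18 of the 51. Igf1, a systemic and local growth factor, read 5.15, 4.77, 5.07, 5.29 and 4.29 against 12.04 and 11.61, at least 58.4-fold lower (adjusted p = 4.61e-08). Cxcl12, the stromal chemokine SDF-1, was 138-fold lower (adjusted p = 2.4e-07), the heparin-binding factor Ptn 170.1-fold (adjusted p = 5.04e-07), and the WNT amplifier Rspo3 at least 48.4-fold (adjusted p = 9.28e-06). Bmp4 read 6.20, 6.78, 6.46, 6.08 and 6.60 against 11.73 and 11.69, 39.1-fold lower (adjusted p = 2.06e-05). Lif, which feeder fibroblasts supply to stem cells, differed by -1.04 ± 0.50, with every line below both MEF arrays, and did not pass (adjusted p = 0.0962). Proteins that bind or receive IGF were lower in 9 of 13 cases (69.2%). Igfbp5 read 5.62, 6.49, 6.20, 5.82 and 7.03 against 14.14 and 13.91, 222-fold lower (adjusted p = 3.88e-08), and Irs1, an adaptor of the insulin receptor, differed by -6.03 ± 0.24 as measured (adjusted p = 8.21e-09) and by -5.76 with signals raised to the array median, under which 4 of the 5 lines lay. The 2 members called higher were Igfbp2, at 13.86, 13.83, 13.69, 14.003 and 14.11 against 12.04 and 12.24 (3.39-fold, adjusted p = 0.000135), and the oncofetal RNA-binding protein Igf2bp1, 5.42-fold (adjusted p = 4.03e-07).

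Hox genes give cells their position along the body axis. Of 39 listed, 26 were measured, of which 21 (80.8%) were lower in AG-haESC and 2 (7.7%) higher, with a median of -3.03. For 10 of the 26 all AG-haESC arrays lay below their medians. Hoxc8 read 4.13, 5.85, 5.24, 4.12 and 5.59 against 10.34 and 10.66, at least 23.3-fold lower (adjusted p = 0.000814), and Hoxb6 1.94, 0.95, 3.82, 3.25 and 4.33 against 8.28 and 9.41, at least 7.38-fold lower (adjusted p = 0.000533). Hoxa5 was above the median in all lines and 4.80-fold lower (adjusted p = 5.68e-06). The exceptions were both of paralogue group 13, the most posterior. Hoxb13 read 8.03, 7.69, 7.96, 8.01 and 8.13 against 3.83 and 5.14, at least 3.95-fold higher (adjusted p = 0.000991), and Hoxc13 8.15, 7.71, 6.92, 7.10 and 8.52 against 5.92 and 5.30, at least 3.24-fold (adjusted p = 0.0244). The call for Hoxc13 was lost without MEF replicate 1 or 2 (adjusted p = 0.0628 and 0.156).

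Genes of DNA replication were higher as a block. Of 52 measured, 47 (90.4%) were called higher and 0 lower, and the median difference was 2.02. All 52 had every AG-haESC array above both MEF arrays, against 34.6% of all genes. Mcm2, a subunit of the replicative helicase, read 12.58, 12.58, 12.61, 12.65 and 12.40 against 10.42 and 10.28, 4.64-fold higher (adjusted p = 2.7e-08). Orc1 and Cdc6, which load that helicase at origins, were 11.1-fold and 9.29-fold higher (adjusted p = 2.83e-08 and 2.66e-08). The 5 members not called were Orc3, Orc4, Rfc2, Tyms and Rrm1, the last at 0.89 ± 0.12 (adjusted p = 4.86e-05), just under 2-fold. Mitotic genes were higher in 42 of 43 cases (97.7%), with a median of 2.33. Ccnf, cyclin F, read 10.45, 10.51, 10.41, 10.15 and 10.07 against 6.10 and 6.47, 16.4-fold higher (adjusted p = 1.28e-07), and Espl1, separase, was 11.2-fold higher (adjusted p = 1.68e-08). Bub3, a spindle checkpoint protein, was the member not called, at 0.25 ± 0.24 (adjusted p = 0.382). Both groups were sorted as G1/G0 cells, and how far the sort removed cells in S, G2 or M was not measured here.

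Regulators of G1 were split instead. Of 30 measured, 5 (16.7%) were higher and 9 (30.0%) lower, close to the background of 19.7% and 22.5%. Ccnd2, cyclin D2, read 8.13, 8.87, 8.79, 7.41 and 8.31 against 14.10 and 13.90, 51.9-fold lower (adjusted p = 0.00032), and Ccnd1 was 4.38-fold lower (adjusted p = 0.000398). Cdkn1a, the inhibitor p21, read 11.69, 11.63, 11.03, 9.94 and 12.54 against 12.59 and 13.09, with replicate 4 the lowest and replicate 5 just under MEF, 2.78-fold lower (adjusted p = 0.0382). This call was lost without AG-haESC replicate 3, MEF replicate 1 or MEF replicate 2 (adjusted p = 0.0698, 0.084 and 0.212). It was also lost with the mean of probe sets, no variance trend and centring on the median of the tested genes (adjusted p = 0.0538, 0.0684 and 0.0581). Cdkn2a differed by -0.86 ± 0.50 (adjusted p = 0.162). Ccne1, cyclin E1, read 11.82, 12.15, 12.22, 11.87 and 10.07 against 10.24 and 10.29. Replicate 5 lay below both MEF arrays while the other 4 lines were more than 1 log2 unit above them, and the gene was not called (adjusted p = 0.0643). Without replicate 5 the difference was 1.75 (adjusted p = 0.00566). Cdc25a, the phosphatase that activates CDK2, was 4.64-fold higher (adjusted p = 1.53e-05), and the retinoblastoma relative Rbl2 4.77-fold lower (adjusted p = 0.000478).

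Genes of homologous recombination and mismatch repair were higher as well. Of 25 measured, 23 (92.0%) were higher and 0 lower, with a median of 2.47. Brca1 read 11.49, 11.55, 11.65, 11.59 and 11.16 against 8.19 and 8.09, 10.2-fold higher (adjusted p = 1.57e-08), and its partner Bard1 8.09, 8.17, 7.97, 8.43 and 7.54 against 1.62 and 1.82, at least 4.17-fold higher (adjusted p = 9.25e-08). Rad54b, a recombination motor, was at least 7.66-fold higher (adjusted p = 1.52e-06), and the meiotic recombinase Dmc1 at least 8.18-fold (adjusted p = 2.12e-05). Targets of p53 showed no common direction, with 4 of 24 (16.7%) higher and 4 lower. The number higher fell without MEF replicate 1 or 2 and was 7 with centring on the median of the tested genes. Fas, the death receptor, had at least 5.46-fold less signal (adjusted p = 0.00241), Plk2 was 6.65-fold lower (adjusted p = 0.00644), while Perp, a desmosomal p53 target, was 5.87-fold higher (adjusted p = 0.00095) and Gtse1, a p53 inhibitor of G2, 4.59-fold (adjusted p = 0.000545). Replicate 5 was the brightest line for 16 of the 24, against 25.7% of all genes.

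Chromatin genes leaned towards AG-haESC. Of 17 DNA methylation and demethylation genes, 10 (58.8%) were higher and 1 lower, with a median of 1.34. Dnmt3l, the catalytically inactive partner of the de novo enzymes, read 11.48, 12.01, 12.07, 12.18 and 12.16 against 3.05 and 4.54, at least 63.9-fold higher (adjusted p = 1.51e-08). Dnmt3b, a de novo methyltransferase, was 29.3-fold higher (adjusted p = 3.27e-06), and Tet1, which oxidises methylcytosine, 28.6-fold (adjusted p = 6.76e-08). The other de novo enzyme, Dnmt3a, overlapped with MEF at 9.13, 11.001, 10.16, 10.41 and 9.84 against 9.67 and 9.54 (adjusted p = 0.461). Of its 4 other kept probe sets 1 was called higher and 2 lower, so the gene's result depends on the probe set. Mbd2, a reader of methylated DNA, was the member called lower, 4.39-fold (adjusted p = 1.74e-05). Polycomb genes were higher in 13 of 30 cases (43.3%) and lower in 3. Ezh2, the methyltransferase of PRC2, read 12.94, 12.84, 12.75, 12.83 and 12.74 against 10.46 and 10.63, 4.83-fold higher (adjusted p = 2.74e-08), and its cofactor Jarid2 was 15.4-fold higher (adjusted p = 2.47e-06). Among PRC1 chromobox proteins, Cbx7 was at least 21.6-fold higher (adjusted p = 2.69e-09) and Cbx6 2.92-fold lower (adjusted p = 1.59e-05).

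Subunits of the BAF remodeller exchange during differentiation. Of 13 subunits typical of ES cells 2 were higher (1 without MEF replicate 2) and 2 lower, and of 10 typical of differentiated cells 1 was higher and 3 lower, counts near the background. The ATPase Smarca4, BRG1, read 11.78, 11.74, 11.35, 11.67 and 11.79 against 11.45 and 11.70, at 0.09 ± 0.14 (adjusted p = 0.581), while its alternative Smarca2, BRM, read 7.996, 7.63, 7.72, 7.01 and 8.30 against 10.37 and 10.21, 5.91-fold lower (adjusted p = 0.000235). The same held for the scaffold pair, with Smarcc1 at 0.34 ± 0.21 (adjusted p = 0.184) and Smarcc2 3.34-fold lower (adjusted p = 0.000787). In the third pair Smarcd1 was 2.46-fold higher (adjusted p = 0.00728, and 0.118 without MEF replicate 2) and Smarcd3 10.8-fold lower (adjusted p = 6.27e-06). Smarca2 had 1 other kept probe set, which was not called. In each pair the subunit of differentiated cells was called lower on the probe set used. Of 26 measured pairs of related genes with textbook contrasts between stem and differentiated cells, these among them, 9 were called in opposite directions and 3 in the same direction.

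Metabolic genes moved singly. Of 24 glycolysis genes 8 (33.3%) were higher and 3 (12.5%) lower, with a median of 0.57. Slc2a3, the high-affinity glucose transporter GLUT3, read 14.53, 14.47, 14.36, 14.87 and 14.52 against 10.72 and 10.54, 15.2-fold higher (adjusted p = 2.26e-08). Slc2a1, GLUT1, and Hk2, hexokinase 2, were 5.40-fold and 5.88-fold higher (adjusted p = 1.39e-05 and 3.21e-07). Ldha overlapped, at 0.28 ± 0.34 (adjusted p = 0.49), and the enolase Eno3 was 6.32-fold lower (adjusted p = 1.06e-05). Oxidative phosphorylation moved little, with 4 of 65 (6.15%) higher and 0 lower, below the background. With centring on the median of the tested genes 9 were higher. Every AG-haESC array nonetheless exceeded both MEF arrays for 53 of the 65, against 34.6% of all genes. The largest difference was Cox7a1, the heart and muscle isoform of a cytochrome c oxidase subunit, at 10.55, 10.07, 9.83, 10.30 and 10.65 against 4.88 and 5.47, at least 19.7-fold higher (adjusted p = 4.01e-07). Its widely expressed counterpart Cox7a2 differed by 0.58 ± 0.08. In one-carbon, serine and threonine metabolism 10 of 23 (43.5%) were higher and 2 (8.7%) lower. Gldc, glycine decarboxylase, read 10.62, 10.15, 9.97, 10.19 and 10.41 against 3.43 and 4.72, at least 19.5-fold higher (adjusted p = 2.7e-08), and the cytosolic folate enzyme Shmt1 was 6.72-fold higher (adjusted p = 5.97e-07). The mitochondrial folate enzymes went the other way or did not pass, with Aldh1l2 66.1-fold lower (adjusted p = 1.19e-08), Shmt2 2.04-fold lower (adjusted p = 9.82e-05, and under 2-fold without AG-haESC replicate 3 or 5) and Mthfd2 at -0.31 ± 0.33 (adjusted p = 0.435).

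Imprinted genes are transcribed from the copy of a single parent, and AG-haESC hold no maternal copy. Whether each listed gene is imprinted in ES cells or fibroblasts was not tested. Against MEF, the genes expressed from the paternal copy were not higher as a list. Of 26 measured, 5 (19.2%) were higher and 8 (30.8%) lower, with a median of -0.043. Plagl1, a zinc finger growth regulator, read 13.33, 13.22, 13.40, 13.004 and 13.23 against 13.29 and 12.9999, so that the groups overlapped (0.09 ± 0.21, adjusted p = 0.735), while E14 stood at a mean of 9.73. Igf2, the fetal growth factor, read 8.47, 9.77, 9.20, 8.31 and 8.27 against 14.59 and 14.50, 53.5-fold lower (adjusted p = 3.1e-06). Peg3, a zinc finger protein, was 2.26-fold lower (adjusted p = 0.000461), but under 2-fold with centring on the median of the tested genes. Mest, a hydrolase-like protein of mesoderm, was 6.15-fold lower (adjusted p = 1.03e-05). Gab1, a signalling adaptor, and Mkrn3, a ubiquitin ligase, were 4.998-fold and 4.49-fold higher (adjusted p = 2.67e-07 and 0.00019).

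Genes expressed from the maternal copy were lower in 12 of 30 cases (40%) and higher in 4 (13.3%), against 22.5% and 19.7% of all genes, with a median of -0.90. The difference between the paternal and maternal lists was not tested. Grb10, a growth-restraining adaptor, read 9.61, 9.22, 9.28, 9.20 and 8.77 against 14.02 and 13.92, 27.01-fold lower (adjusted p = 1.68e-08). Meg3, a noncoding RNA of the Dlk1 cluster, was 11.1-fold lower (adjusted p = 5.15e-06), with 9 of its 10 other kept probe sets also called lower. Cdkn1c, the CDK inhibitor p57, read 5.86, 5.97, 6.20, 7.67 and 5.74 against 12.02 and 11.60, 45.9-fold lower (adjusted p = 3.04e-05), with replicate 4 the highest line. Transcript signal was not absent for all of them, since Grb10 stayed above 8.7 and Igf2r, a scavenger receptor for IGF2, read 8.87, 9.75, 9.75, 10.32 and 10.22 against 12.78 and 12.71. The members called higher included Phlda2, a placental growth inhibitor, at 8.24, 9.06, 9.12, 9.35 and 9.08 against 6.49 and 6.37 (5.80-fold, adjusted p = 2.31e-05), and Ascl2, a trophoblast bHLH factor, at least 3.78-fold higher (adjusted p = 0.00128). Cell type and parental origin cannot be told apart in these values.

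**Figure D4:**
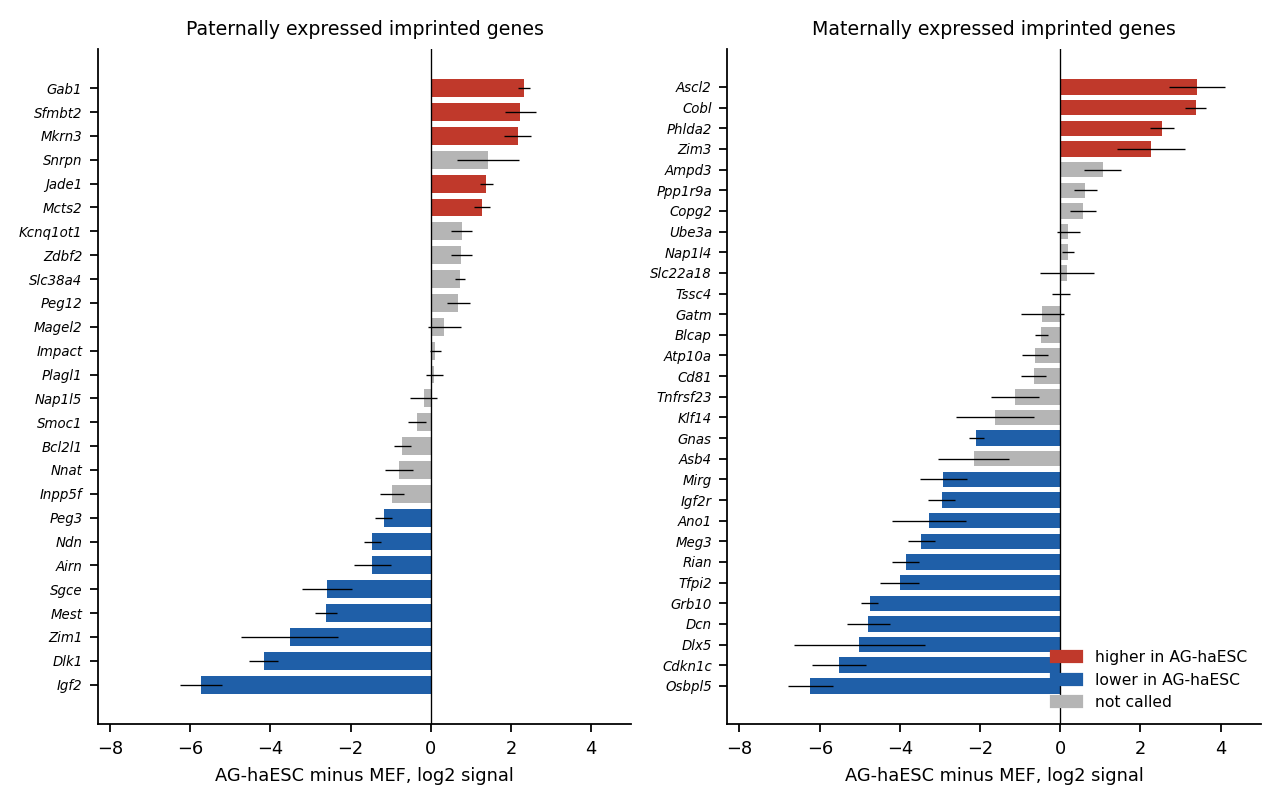
Difference in log2 signal, AG-haESC minus MEF, of the 26 paternally expressed (left) and 30 maternally expressed (right) imprinted genes measured, as bars from 0 with the standard error of the fit as a thin line, and colours for genes called higher (red), called lower (blue) and not called (grey). Igf2 is the lowest on the left and Osbpl5 on the right, and 5 and 4 genes are called higher.

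X-linked genes were shifted upwards. Of 465 measured, 170 (36.6%) were higher in AG-haESC and 73 (15.7%) lower, against 19.09% and 22.8% of 12732 autosomal genes. Relative to the autosomal median of the same array, the X chromosome's median difference from MEF was 0.54, 0.43, 0.73, 0.72 and 0.52 in replicates 1 to 5. Every line was above 0, and no autosome in any AG-haESC array left the range from -0.20 to 0.16. Among genes with a mean log2 signal of at least 8, a subset chosen after the data were seen, 122 of 304 X-linked genes (40.1%) were higher, against 19.4% of 7578 autosomal genes. In the E14 arrays the same X value lay between -0.15 and -0.063. Trap1a, an X-linked tumour rejection antigen, read 14.40, 14.29, 14.49, 14.31 and 14.41 against -1.14 and 1.98, at least 337-fold higher (adjusted p = 1.07e-08), the largest measured difference of all genes. Xist, the noncoding RNA of X inactivation, read 8.56, 8.79, 8.68, 8.67 and 8.75 in AG-haESC, level across the lines, and 5.53 and 2.63 in MEF, at least 6.53-fold higher (adjusted p = 3.91e-05). The E14 arrays read 7.43, 7.39 and 8.41 for Xist. By limma E14 was also called higher than MEF (adjusted p = 0.000468), and AG-haESC did not differ from E14 by the rule (adjusted p = 0.236). The ratio of X chromosomes to autosome sets and the cell type differ at once here and cannot be told apart.

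**Figure D5:**
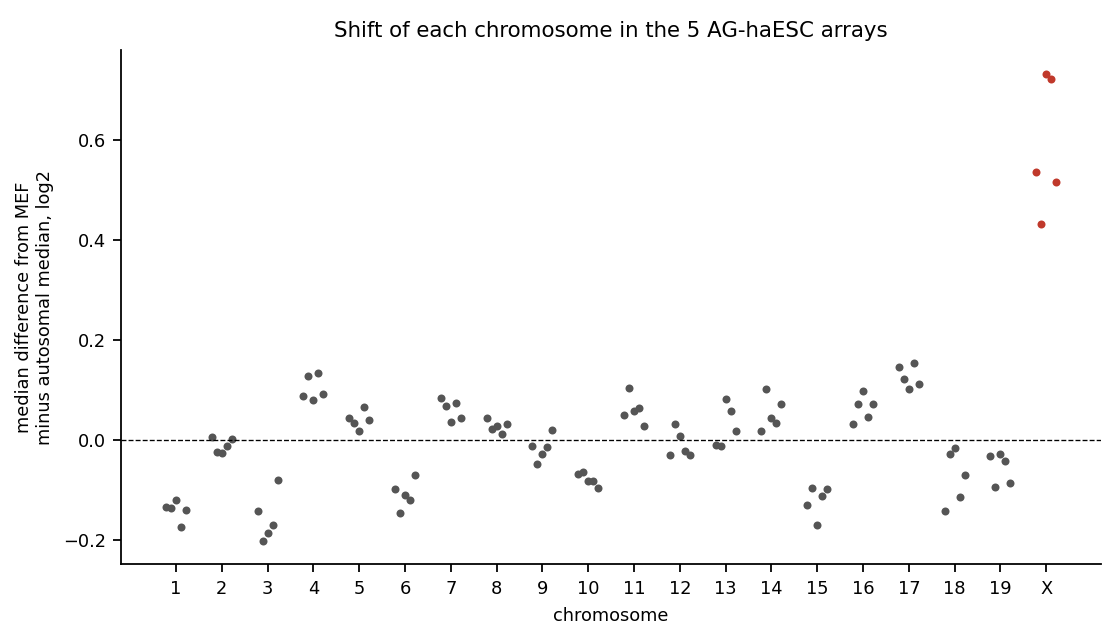
Median log2 difference from the MEF mean for the genes of each chromosome, minus the median over all autosomal genes of the same array, with a point for each of the 5 AG-haESC arrays in order. The X chromosome (red) lies between 0.43 and 0.73, and the autosomes (grey) lie between -0.20 and 0.16.

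Y-linked transcripts were faint in AG-haESC. Eif2s3y, a translation factor gene of the Y, read 1.33, 5.15, 4.50, 1.27 and 4.84 against 11.20 and 11.19, at least 37.9-fold lower (adjusted p = 3.96e-05). Uty and Kdm5d, histone demethylase genes, were at least 9.33-fold and 12.7-fold lower (adjusted p = 8.06e-06 and 0.000122). All 5 lines lay below their array medians for these genes, and both MEF arrays, labelled as male, lay above theirs. Uba1y was below the median in both groups.

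Innate immune genes showed no common direction but varied between lines. Of 26 interferon response genes, 3 (11.5%) were higher and 3 lower. Oas1a, an antiviral oligoadenylate synthetase, read 11.80, 11.89, 12.53, 10.35 and 9.35 against 7.89 and 7.79, 10.2-fold higher (adjusted p = 0.00115), with replicate 3 the highest and replicate 5 the lowest. Replicate 3 was the brightest line for 17 of the 26 genes, against 16.6% of all genes, and the list median ranged from 6.74 in replicate 5 to 9.12 in replicate 3. Ifit2, an interferon-induced RNA-binding protein, was at least 9.71-fold lower (adjusted p = 0.000911). For MHC class I presentation 5 of 15 (33.3%) were lower and 0 higher, and 3 were lower without MEF replicate 1. B2m, the light chain of class I molecules, read 10.40, 11.53, 11.26, 10.16 and 11.11 against 13.96 and 13.997, 8.48-fold lower (adjusted p = 1.02e-05), and H2-K1 was 3.08-fold lower (adjusted p = 0.00346), although H2 genes share sequence and their probe sets may cross-read.

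Markers of other cell types were measured on both sides. Of 25 macrophage markers, 19 (76.0%) were lower in AG-haESC, with a median of -3.96. All AG-haESC arrays lay below their medians for 15 of the 25, and the number lower fell without MEF replicate 1 or 2. The list median was 8.10 and 8.03 in MEF against 4.67 to 5.41 in AG-haESC. Lyz2, macrophage lysozyme, read 2.22, 5.34, 5.12, 3.30 and 4.59 against 11.73 and 11.56, at least 51.6-fold lower (adjusted p = 6.05e-06), and C1qa, a complement subunit, at least 5.32-fold (adjusted p = 7.14e-05). Laptm5, a lysosomal protein of blood cells, was the member called higher, at 10.98, 10.52, 10.09, 9.07 and 10.92 against 8.26 and 8.49 (3.84-fold, adjusted p = 0.00195), with 2 of its 3 other kept probe sets also called higher. Cd68, a lysosomal marker of macrophages, was not called, at -0.63 ± 0.25 (adjusted p = 0.0441). In MEF the defining markers Ptprc and Tyrobp stood at 7.52 and 7.08 and at 9.11 and 8.90, and the part of macrophage transcripts in the counts above was not tested. The related Lyz1 read 0.42, 5.59, 2.40, 1.26 and 3.54 against 12.64 and 12.62, at least 102-fold lower (adjusted p = 3.33e-05), and the 2 lysozymes may share probes. Of 25 skeletal muscle genes 17 (68.0%) were lower and 3 (12%) higher. All AG-haESC arrays lay below their medians for 10 of the 25, and the number lower fell without MEF replicate 1 or 2. The list median was 8.13 and 8.07 in MEF against 5.70 to 6.40 in AG-haESC. Actc1, cardiac actin of embryonic muscle, read 3.08, 6.10, 5.17, 5.75 and 5.32 against 10.76 and 10.61, a difference of -5.60 ± 0.69 as measured (adjusted p = 3.32e-05) and of -4.72 with signals raised to the array median, which only replicate 2 exceeded. Myog, a muscle differentiation factor, was at least 5.41-fold lower (adjusted p = 6.27e-05). Mylpf, a fast muscle light chain, was an exception at 12.92, 13.12, 13.36, 12.57 and 12.77 against 10.39 and 10.43, 5.80-fold higher (adjusted p = 4.55e-07).

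Endothelial markers divided by gene, 4 of 13 (30.8%) higher and 5 (38.5%) lower, although 3 were lower without MEF replicate 1 and 2 without MEF replicate 2. Pecam1, which stem cells express as well, read 9.08, 8.61, 8.68, 8.61 and 8.99 against 3.27 and -0.11, at least 7.003-fold higher (adjusted p = 4.87e-06). Emcn and Erg, endomucin and an ETS factor of endothelium, were at least 10.3-fold and 4.72-fold lower (adjusted p = 2.59e-05 and 0.00132). Neural markers were mixed, 4 of 18 (22.2%) higher and 6 (33.3%) lower. Stmn2, a microtubule regulator of neurons, read 12.59, 12.77, 12.94, 12.79 and 12.47 against 7.44 and 7.66, 35.8-fold higher (adjusted p = 4.03e-10), while Fabp7, a fatty acid binding protein of glia, was at least 39.8-fold lower (adjusted p = 5.42e-05).

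Lineages next to the stem cell in the embryo were also read. Of 15 extraembryonic endoderm markers 4 (26.7%) were higher and 9 (60%) lower. Among the 4, Hnf4a turned sign with no filter (-0.13) and with signals raised to the array median (-0.022), and Sox17 with the latter (-0.0087). Of the defining factors Gata6 was 4.46-fold lower (adjusted p = 0.000365) while Gata4 and Sox7 differed by 0.09 ± 0.48 and 0.58 ± 0.55 (adjusted p = 0.883 and 0.382). Afp, alpha-fetoprotein, read 6.51, 6.56, 7.22, 8.32 and 7.52 against 1.31 and 2.86, at least 2.37-fold higher (adjusted p = 2.7e-05). Of 18 trophectoderm markers listed, 11 were measured, of which 5 (45.5%) were higher and 0 lower. For 5 of the 11 both MEF arrays lay below their medians. Tfap2c, an AP-2 factor of trophoblast and germ cells, read 11.97, 10.995, 11.10, 10.84 and 11.96 against 4.58 and 3.82, at least 41.9-fold higher (adjusted p = 2.08e-08), Eomes was at least 4.60-fold higher (adjusted p = 1.44e-06), and the defining marker Gata3 differed by 0.75 ± 0.84 (adjusted p = 0.467). Markers of the primed epiblast, the stage after the naive stem cell state, were higher in 8 of 13 cases (61.5%). The 2 called lower (15.4%) were Sall2 and Fgf5. In 5 of the 13 both MEF arrays lay below their medians. Otx2, a head homeobox factor, read 9.16, 8.998, 8.29, 9.59 and 9.63 against 1.51 and 0.96, at least 8.89-fold higher (adjusted p = 1.51e-08), and Fgf5, which marks the primed state, was 4.67, 4.04, 1.67, 4.27 and 3.97 against 5.35 and 7.72, below the median in every line and at least 1.49-fold lower (adjusted p = 0.042). That call was not stable, since it was lost without any one of AG-haESC replicates 2 to 5 or MEF replicate 2, where the adjusted p reached 0.371. It was also lost with signals raised to the array median (-0.93, adjusted p = 0.0848), with no variance trend and with centring (adjusted p = 0.0532 and 0.0627).

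Among all genes the 15 largest increases were led by Trap1a and Tdgf1, and included Morc1, a germline silencing ATPase, at least 56.9-fold (adjusted p = 1.22e-10), and Calcoco2, an autophagy receptor, at 12.89, 12.97, 12.96, 11.66 and 12.72 against 4.25 and 1.57, at least 101-fold (adjusted p = 1.12e-07). The 15 largest decreases were led by Mgp, matrix Gla protein, an inhibitor of calcification, at 3.11, 5.15, 5.17, 1.74 and 2.48 against 14.38 and 14.18, at least 320.5-fold lower (adjusted p = 3.6e-06). They also held Rtl3, a retrotransposon-derived gene of the X, at least 43.9-fold (adjusted p = 1.44e-06), Tnmd, a tendon protein, at least 100.4-fold (adjusted p = 4.88e-06), Epha3, an ephrin receptor, at least 43.96-fold (adjusted p = 1.85e-05), and Tgfb3 at least 79.1-fold (adjusted p = 9e-06). For each of these 9 named genes the dimmer group lay below its array medians, so their order by measured difference has no meaning beyond these bounds.

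Promoter composition differed at the extremes. Over 10652 tested genes with a RefSeq window, the median window held 20 CpG dinucleotides, and 8.4% of windows held fewer than 5. Among genes at least 16-fold higher in AG-haESC the median was 10 and 22.3% held fewer than 5, and among genes at least 16-fold lower the median was 12 and 21.2% did. Genes that differed most in either direction thus had fewer CpG dinucleotides near their start than the tested genes as a whole, and the macrophage markers had the fewest of the lists counted, with a median of 4.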

How the data were processed

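RNA of 10 samples was hybridised to Affymetrix 430 2.0 arrays. The authors deposited signal intensities made with MAS5, per the submitters' processing notes, and each array's trimmed mean (2% cut from each end) was 500. The deposited intensity was taken to log2 here. Probe sets had to exceed their array's median in at least 2 arrays, and of 45101 probe sets 64 controls were left out, 932 with several symbols and 9160 with none listed. The probe set with the highest mean gave a gene's value. One limma fit (version 3.58.1, R 4.3.3, lmFit and eBayes with a variance trend) of 3 group means over all 10 arrays left 7 residual degrees of freedom. It was tested on simulated data. The number of arrays limits the precision. Promoter windows came from RefSeq (GRCm38.p6), the first being used for 2174 genes with several.

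Members, gene lists, pairs and motifs were chosen with earlier results of these data known. Genes named are textbook anchors and pairs, the 15 largest differences each way among genes without overlap, and in each list the 4 largest called members and up to 3 against its direction. Other genes named, mostly uncalled members, defining markers and the genes whose promoters are printed, were chosen after their values were seen. Alternatives changed the normalization, pseudocount, filter, probe set rule and fit, or left out 1 array.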

Additional observations from a re-analysis of the deposited data

Results flagged for a closer look

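Among the 5 AG-haESC lines, a single line stood apart for 20 of the 217 genes given with values, by a gap to the nearest line above 0.71 of the range of all 5, and for 0 of 43 list medians. Chance gives such a gap in about 1 of 20 groups, and 217 genes were examined. Replicate 4 was lowest for Calcoco2 (11.66, others 12.72 to 12.97), Enah (13.21, others 13.52 to 13.61), Gtse1 (9.11, others 10.36 to 10.60), Hormad1 (10.67, others 11.49 to 11.67), P4ha3 (3.35, others 4.78 to 5.18), Prdm14 (10.37, others 11.10 to 11.40), Sox7 (5.28, others 5.89 to 6.11) and Tet1 (11.83, others 12.40 to 12.54). Replicate 4 was highest for Cdkn1c (7.67, others 5.74 to 6.20) and Cox7a2 (14.69, others 14.50 to 14.55). Replicate 3 was lowest for Fgf5 (1.67, others 3.97 to 4.67), Hk2 (12.39, others 12.90 to 13.04) and Smarca4 (11.35, others 11.67 to 11.79). Replicate 5 was lowest for Ccne1 (10.07, others 11.82 to 12.22), Pou5f1 (13.35, others 13.56 to 13.63) and Tead4 (6.60, others 7.39 to 7.63). Replicate 1 was lowest for Dnmt3l (11.48, others 12.01 to 12.18) and Phlda2 (8.24, others 9.06 to 9.35). Replicate 2 was lowest for Mageb16 (12.73, others 12.98 to 13.07). Replicate 2 was highest for Aldh1l2 (6.90, others 6.39 to 6.45). Of the 20, replicate 4 accounted for 10. Leaving out the line apart changed the call for Ccne1 and Fgf5, and the Fgf5 call was also lost without other lines.

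For 46 of the 217 genes the difference of AG-haESC from E14 was itself called by limma (adjusted p below 0.05 and at least 2-fold), so that AG-haESC and E14 stood at different distances from MEF. Both distances use the same MEF arrays. The E14 arrays were not screened for outliers, and replicate 3 stood apart for some of these genes. E14 replicates 1 to 3 read 7.61, 7.65 and 3.62 for Kdm5d and 7.71, 7.64 and 10.52 for Bmp4, so their E14 means describe no single array. Differences in this section are as measured and are not bounds. All E14 arrays lay below their medians for Col1a1, Postn, Lum, Ankrd1, Tead4 and Afp. All AG-haESC arrays did so for Col8a2, Lama1 and the Y-linked genes. The sizes of these gaps thus rest partly on signals treated as background. Matrix and fibroblast genes had these differences from MEF: Col1a1 -5.62 against -8.76 in E14 (AG-haESC minus E14 3.14 ± 0.69, adjusted p = 0.0106), Col1a2 -4.01 against -6.70 in E14 (AG-haESC minus E14 2.69 ± 0.47, adjusted p = 0.00303), Col3a1 -5.02 against -7.16 in E14 (AG-haESC minus E14 2.14 ± 0.47, adjusted p = 0.0108), Postn -6.91 against -9.94 in E14 (AG-haESC minus E14 3.02 ± 0.59, adjusted p = 0.00571), Lox -5.20 against -6.77 in E14 (AG-haESC minus E14 1.57 ± 0.36, adjusted p = 0.0129), Lum -5.33 against -7.15 in E14 (AG-haESC minus E14 1.81 ± 0.40, adjusted p = 0.0115), Timp1 -1.33 against -2.98 in E14 (AG-haESC minus E14 1.65 ± 0.15, adjusted p = 6.59e-05), Col8a2 -7.22 against -5.36 in E14 (AG-haESC minus E14 -1.87 ± 0.45, adjusted p = 0.018) and Mmp2 -5.55 against -3.88 in E14 (AG-haESC minus E14 -1.67 ± 0.28, adjusted p = 0.0024). Targets and factors of YAP and TEAD had these differences from MEF: Ccn1 -2.37 against -5.08 in E14 (AG-haESC minus E14 2.71 ± 0.21, adjusted p = 2.33e-05), Ccn2 -2.37 against -3.84 in E14 (AG-haESC minus E14 1.47 ± 0.30, adjusted p = 0.00678), Ankrd1 -4.55 against -6.03 in E14 (AG-haESC minus E14 1.48 ± 0.43, adjusted p = 0.0388) and Tead4 2.16 against 0.65 in E14 (AG-haESC minus E14 1.52 ± 0.29, adjusted p = 0.00544). 

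Imprinted genes had these differences from MEF: Plagl1 0.09 against -3.42 in E14 (AG-haESC minus E14 3.51 ± 0.18, adjusted p = 1.41e-06), Peg3 -1.18 against -2.92 in E14 (AG-haESC minus E14 1.75 ± 0.18, adjusted p = 0.000118), Grb10 -4.76 against -2.80 in E14 (AG-haESC minus E14 -1.95 ± 0.19, adjusted p = 7.9e-05), Meg3 -3.47 against -1.97 in E14 (AG-haESC minus E14 -1.50 ± 0.29, adjusted p = 0.00606), Cdkn1c -5.52 against -2.76 in E14 (AG-haESC minus E14 -2.76 ± 0.59, adjusted p = 0.0095) and Phlda2 2.54 against 5.40 in E14 (AG-haESC minus E14 -2.86 ± 0.26, adjusted p = 5.98e-05). Germline genes had these differences from MEF: Rhox6 10.35 against 5.74 in E14 (AG-haESC minus E14 4.61 ± 0.32, adjusted p = 1.17e-05), Sycp1 8.34 against 4.81 in E14 (AG-haESC minus E14 3.53 ± 0.32, adjusted p = 5.28e-05), Hormad1 8.83 against 6.55 in E14 (AG-haESC minus E14 2.28 ± 0.68, adjusted p = 0.0415) and Sycp3 5.90 against 7.23 in E14 (AG-haESC minus E14 -1.33 ± 0.24, adjusted p = 0.00425). Y-linked genes had these differences from MEF: Eif2s3y -7.78 against 0.61 in E14 (AG-haESC minus E14 -8.39 ± 0.86, adjusted p = 0.000117), Uty -6.22 against -0.91 in E14 (AG-haESC minus E14 -5.31 ± 0.56, adjusted p = 0.000139) and Kdm5d -6.19 against -3.33 in E14 (AG-haESC minus E14 -2.86 ± 0.79, adjusted p = 0.0322). Stem cell genes had these differences from MEF: Prdm14 9.64 against 8.22 in E14 (AG-haESC minus E14 1.43 ± 0.37, adjusted p = 0.0231), Zfp42 8.62 against 10.19 in E14 (AG-haESC minus E14 -1.56 ± 0.40, adjusted p = 0.0219), Lin28a 8.93 against 10.50 in E14 (AG-haESC minus E14 -1.57 ± 0.42, adjusted p = 0.0277) and Otx2 7.90 against 9.25 in E14 (AG-haESC minus E14 -1.35 ± 0.31, adjusted p = 0.0135).

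The remaining genes of this kind came from several lists. By AG-haESC minus E14, the higher ones were Afp at 3.43 ± 0.54, Calcoco2 at 2.68 ± 0.50, Gata3 at 5.40 ± 0.74, Hoxb13 at 1.99 ± 0.60, Hoxc8 at 3.30 ± 0.92, Lama3 at 3.02 ± 0.21, Mme at 2.31 ± 0.22, Mylpf at 1.15 ± 0.16, Oas1a at 2.14 ± 0.59 and Smarca2 at 1.91 ± 0.36, and the lower ones Bmp4 at -2.20 ± 0.54, Ccnd1 at -1.90 ± 0.32, Eno3 at -1.01 ± 0.25, Irs1 at -1.06 ± 0.21, Lama1 at -1.51 ± 0.33 and Smarcd3 at -1.51 ± 0.30, with limma's adjusted p between 1.23e-05 and 0.0435. Gata3 had the widest such gap among them, with AG-haESC near MEF (difference 0.75) and E14 far below (difference -4.65). For Hoxc8 every AG-haESC and E14 array lay below its median, so that gap lies within signals treated as background. Ploidy, parental origin, strain, passage and transgene differ between AG-haESC and E14 and cannot be told apart. E14 is male and Y-linked signals were faint in AG-haESC, so sex chromosome content cannot be told apart from these either.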

How the results depend on the processing

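Over quantile normalization, a pseudocount of 32, no filter on low signal, a floor at the array median, the mean of probe sets, a fit of AG-haESC and MEF alone, no variance trend, array weights and centring on the median of the tested genes, the genes called higher numbered 2123 to 3492 and those lower 2475 to 3136. Of 2529 such comparisons for the genes that the naming rule picked, 2477 kept direction and side of the threshold, 36 lost the call, 11 gained it and 5 turned sign, and with 1 array left out 2741 of 2810 kept both and 0 turned sign. Those that turned were Hnf4a, to -0.13 with no filter and -0.022 with the floor, Lin28b, to -0.027, and Sox17, to -0.0087, both with the floor, and Tln1, to -0.10 with the mean of probe sets. Counts of list members called stayed within 1.5 times in 390 of 396 comparisons. The exceptions were p53 targets higher (7 with centring against 4), oxidative phosphorylation higher (9 with centring against 4) and endothelial markers lower (3 with quantile normalization, with the pseudocount and with the floor, and 2 with centring, against 5). The cause was not tested.

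With 1 array left out, 434 of 440 counts stayed within 1.5 times. The others ranged from 1 to 2 for BAF subunits of ES cells higher (1 without MEF replicate 2), 2 to 5 for p53 targets higher (2 without MEF replicate 1 or 2), 3 to 6 for MHC class I lower (3 without MEF replicate 1) and 2 to 5 for endothelial markers lower (3 without MEF replicate 1, 2 without MEF replicate 2). Limiting X-linked genes to a mean log2 signal of at least 8, chosen after seeing the data, left 122 of 304 higher. No paired analysis was possible because the AG-haESC labels carry line names and share no replicate numbers with MEF. With 2 MEF arrays the spread of that group rests on a single difference, and leaving either out assumes that the lone array varies like the other groups. Signals near or below the array median limit what can be said of genes off in either group.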
